A study of Mus musculus with 6 samples.

Results

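The complement system is represented here by 9 genes: the 3 chains of C1q (C1qa, C1qb and C1qc), the later components C2, C4b and C3, factor B (Cfb), properdin (Cfp) and the receptor for the C3a fragment (C3ar1). They were taken by symbol from the 55353 rows of the count table, and all 9 symbols had a row. Of these, 8 genes had enough counts to be tested between groups, and C2 did not.

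Complement is a set of proteins that tag cells, debris and microbes for removal. In the classical pathway C1q, which is assembled from A, B and C chains, binds antibody or the surface of dying cells, and its partner proteases then cut C4 and C2. The alternative pathway runs on C3, factor B and factor D and is stabilised by properdin. Most complement proteins in blood come from the liver, whereas C1q is made mainly by macrophages and dendritic cells and serves as a marker of mature tissue macrophages. Cleavage of C3 releases C3a, which is sensed by the receptor encoded by C3ar1 on myeloid cells.

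RNA was sequenced from macrophages that had been sorted out of calf muscle 3 days after surgery that starved the hindlimb of blood (hindlimb ischemia). There were 3 libraries labelled pfkfb3-ko (KO) and 3 labelled WT, and the question was how macrophages differ when Pfkfb3, which encodes an activator of glycolysis, is deleted, in endothelial cells per the design text. Per the labels, both groups had a mixed background of 129S1/Sv, 129X1/SvJ, C57BL/6 and CBA, and both had been given tamoxifen, the drug that switches on inducible Cre, at 1 mg for 5 days, followed by at least 7 days without it. The labels name neither the driver of the deletion nor the age of the mice. They also do not say whether each library is 1 mouse, so p-values measure only the spread between libraries, which may be technical.

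Total counts were 18853712 to 21070130 in KO and 21029637 to 29060584 in WT. Counts in protein-coding genes were 9176529 to 12422641 in KO and 16995741 to 22751787 in WT, and a single row, Gm23935, annotated as a miRNA, took 31.7% to 46.3% of the counts in KO and 13.7% to 16.8% in WT. Levels are CPM, counts scaled to library size with TMM factors, and 1 count was worth 0.0533 to 0.0713 CPM in KO and 0.0274 to 0.0388 CPM in WT. KO replicates 1 and 2 stood apart from the other 4 libraries in sex type: Xist was at 154 and 171 CPM in these, at 0.129 CPM in KO replicate 3 and at 0.0548 to 0.465 CPM in WT. The Y-linked Ddx3y was at 0.533, 0 and 63.9 CPM in KO and 60.5 to 69.2 CPM in WT. Over all tested genes, KO replicates 1 and 2 were also the most alike pair (Spearman correlation of log2 CPM 0.988). Their correlation was 0.962 and 0.966 with KO replicate 3, and 0.957 to 0.968 with the WT libraries. The WT libraries correlated with each other at 0.973 to 0.987. The KO libraries may thus not be 3 equally independent replicates, which was not tested. Pfkfb3 itself was at 55.5, 59.3 and 160 CPM in KO and 70.9, 101 and 82.4 CPM in WT (adjusted p = 0.89), which checks nothing about an endothelial deletion. Macrophage markers were present in all 6 libraries. Csf1r, the receptor for macrophage growth factors, was at 1588 to 1870 CPM in KO and 738 to 928 CPM in WT and rose (adjusted p = 0.010), Cd68 fell (388 to 525 CPM in KO, 716 to 874 CPM in WT, adjusted p = 0.034), and the other 6 of 8 markers did not pass the test.

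In KO, 5 of the complement genes rose: C1qa, C1qb, C1qc, C4b and C3. None fell, and the 3 other tested genes, Cfb, Cfp and C3ar1, did not pass the test. The rises ranged from 2.07-fold for C1qb to 10.7-fold for C4b. Changes were called at an adjusted p under 0.05 in edgeR's quasi-likelihood test over all 14987 tested genes, of which 6.64% were called, 4.39% higher in KO and 2.25% lower. The median log2 fold change of the 8 tested genes was 1.56, beside 0.01 over all tested genes. The members were chosen with earlier results of these data known, so this contrast describes them and is not a test. In C1qa, C1qb, C1qc, C4b, C3 and Cfb every KO library was above every WT library, and in C3ar1 every KO library was below. Such a complete separation was seen in 16.8% of all tested genes in the upward and in 14.7% in the downward direction. In bulk RNA, fewer cells of a type and less RNA per cell cannot be told apart.

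C1qa encodes the A chain of C1q. It was at 1600, 1650 and 1297 CPM in KO replicates 1 to 3, against 443, 479 and 395 CPM in WT replicates 1 to 3. All 3 KO libraries lay above the WT range by a wide margin, and KO replicate 3 was the lowest of the KO group. The log2 fold change was 1.79 (SE 0.17, adjusted p = 0.0013), a fold of 3.45 with a 95% interval of 2.66 to 4.47.

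C1qb encodes the B chain, and it was at 1165, 1230 and 1251 CPM in KO and 607, 646 and 506 CPM in WT. The KO libraries lay close together, and the smallest KO value was still well above the largest WT value. The fold was 2.07 (95% interval 1.63 to 2.63, log2 fold change 1.05, SE 0.15, adjusted p = 0.0082). C1qc encodes the C chain and was at 838, 993 and 946 CPM in KO and 396, 402 and 300 CPM in WT. The groups were again apart, with a fold of 2.53 (95% interval 1.95 to 3.28, log2 fold change 1.34, SE 0.16, adjusted p = 0.0042).

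**Figure D1:**
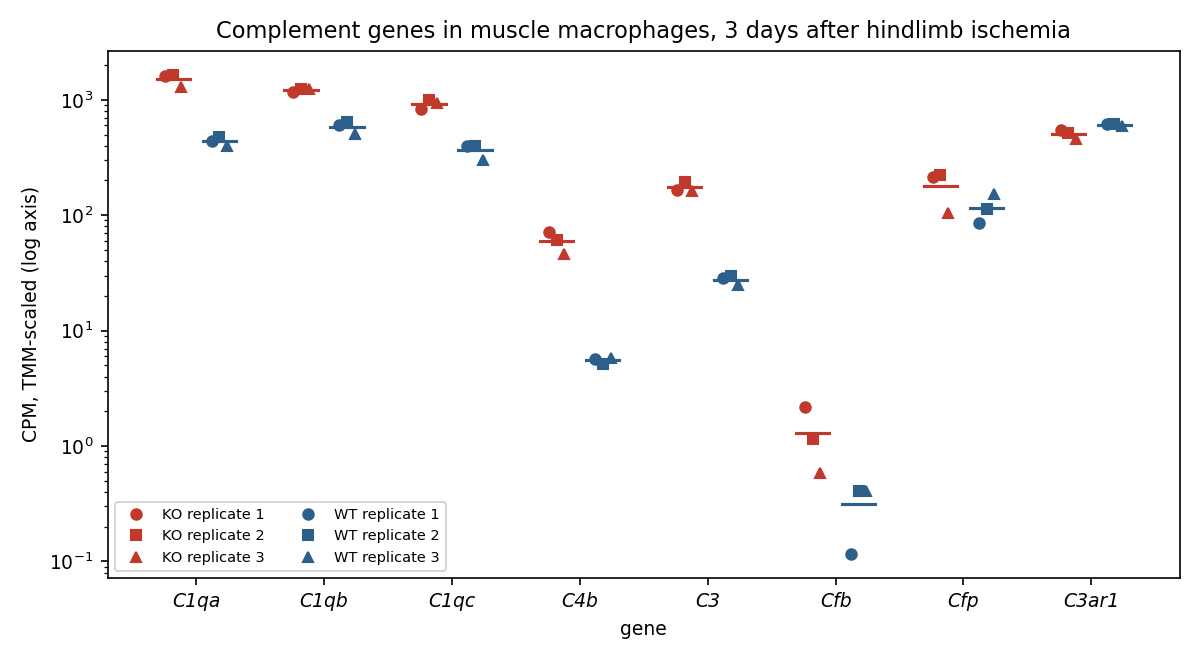
CPM of 8 complement genes in each library on a log axis, with KO in red left of WT in blue, 1 symbol per replicate and a line at the group mean. The C1q chains, C4b and C3 are separated between groups, C4b most widely (45.7 to 70.9 CPM in KO, 5.15 to 5.78 CPM in WT), whereas Cfp overlaps and C3ar1 is slightly lower in KO; C2, at 0 in 1 library, is not drawn.

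Together the 3 chains held 0.276% to 0.321% of all counts in KO and 0.147% to 0.192% in WT. As a share of protein-coding counts, the chains held 0.574% ± 0.0261 in KO and 0.219% ± 0.0258 in WT (n = 3 each, SD). By mean CPM over all libraries, C1qa, C1qb and C1qc ranked 51, 58 and 95 among the rows of the table. On both denominators every KO library was above every WT library.

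The fold changes of the chains ranged from 2.07 for C1qb to 3.45 for C1qa. The ratio of C1qa to C1qb counts within a library, which no scaling of library size can alter, was 1.37, 1.34 and 1.04 in KO replicates 1 to 3 and 0.730, 0.742 and 0.780 in WT replicates 1 to 3. C1qa thus exceeded C1qb in each KO library and was below it in each WT library. The log2 ratio was 0.31 ± 0.23 in KO and -0.41 ± 0.05 in WT (n = 3 each, SD), a difference of 0.73. For C1qa to C1qc the ratios were 1.91, 1.66 and 1.37 in KO and 1.12, 1.19 and 1.32 in WT, and for C1qc to C1qb 0.720, 0.807 and 0.756 in KO and 0.653, 0.621 and 0.592 in WT. Each of the 6 ratios between members that were compared gave an exact two-sided permutation p of 0.1 (0.1 after Benjamini-Hochberg adjustment), the smallest that 3 against 3 libraries allow, so none can pass a threshold of 0.05. The gap in C1qa to C1qc was narrow, since KO replicate 3 (1.37) lay just above WT replicate 3 (1.32).

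**Figure D2:**
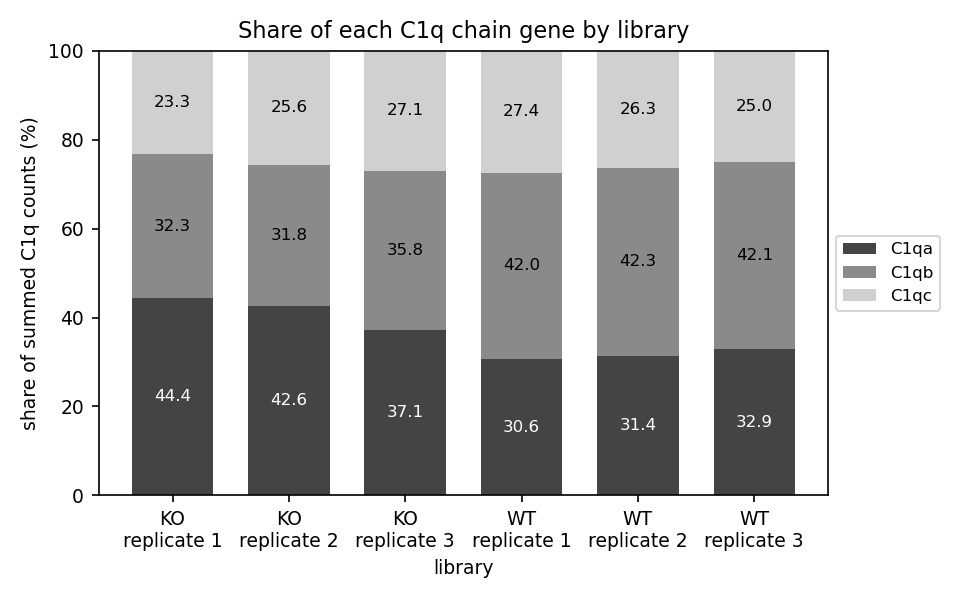
Share of each chain gene in the summed C1q counts of a library, in percent, with the KO libraries left of the WT libraries. C1qa makes up 37.1% to 44.4% in KO and 30.6% to 32.9% in WT, C1qb 31.8% to 35.8% in KO and 42.0% to 42.3% in WT, and the C1qc shares overlap.

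Per kilobase of annotated exon, which allows levels to be compared between genes, the level of C1qa was 1457 CPM per kilobase in KO and 422 in WT, that of C1qb was 1117 in KO and 539 in WT, and that of C1qc was 479 in KO and 189 in WT. C1qc was thus the lowest of the chains in both groups on this scale, while the order of C1qa and C1qb differed between the group means. On the same scale C3ar1 was at 118 in KO and 141 in WT, Cfp at 104 in KO and 67.2 in WT, C3 at 33.9 in KO and 5.35 in WT, C4b at 10.4 in KO and 0.974 in WT, and Cfb at 0.461 in KO and 0.111 in WT. Every chain of C1q was thus above the other members by group mean in both groups. Libraries of this kind can cover transcripts unevenly, and coverage along the transcripts was not measured here.

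The chain genes lie next to each other in an 18675-base stretch of mouse chromosome 4 (GRCm38), all on the minus strand: C1qb at 136880129 to 136886187, C1qc at 136889804 to 136893065 and C1qa (ENSMUSG00000036887) at 136895917 to 136898803. None of their exons overlaps another annotated gene, and no 50-base window of their transcripts occurs in a transcript of another gene. Within 200000 bases on either side, 2 further genes were tested and neither passed the test. Zbtb40 was at 12.2 ± 2.03 CPM in KO and 13.3 ± 3.44 CPM in WT, and Ephb2 at 0.287 ± 0.232 CPM in KO and 0.760 ± 0.391 CPM in WT (n = 3 each, SD). A change in these neighbours was thus not detected, at low counts in Ephb2.

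Promoter sequences from RefSeq (GRCm38.p6) were at hand for 5 of the 9 genes (C1qb, C1qc, C3, Cfp and C3ar1) and not for C1qa, C2, C4b and Cfb. The 250 bases before the RefSeq start site are shown for both C1q chains that have one and for C3, which rose, and for C3ar1, which did not. Each is on the minus strand, read 5' to 3', at chr4:136886201-136886450 (C1qb), chr4:136892915-136893164 (C1qc), chr17:57228137-57228386 (C3) and chr6:122856158-122856407 (C3ar1). Capitals mark matches, on either strand, to the motifs searched, which were GAGGAA and its longer form GAGGAAGT (PU.1, a transcription factor that specifies macrophages), TGCTGAC (a core of Maf sites), GAAA and GAAA with 2 bases between them (interferon-stimulated response element), TTCNNNGAA (gamma-activated site) and GGG and TTTCC with 2 bases between them (NF-kB). GAGGAA lies within GAGGAAGT, so a match to the longer form is also one to the shorter.
C1qb: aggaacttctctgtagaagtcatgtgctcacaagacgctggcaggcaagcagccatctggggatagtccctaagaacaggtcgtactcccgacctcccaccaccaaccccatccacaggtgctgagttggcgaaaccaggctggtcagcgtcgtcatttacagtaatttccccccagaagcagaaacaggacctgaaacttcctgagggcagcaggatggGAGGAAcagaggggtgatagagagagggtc
C1qc: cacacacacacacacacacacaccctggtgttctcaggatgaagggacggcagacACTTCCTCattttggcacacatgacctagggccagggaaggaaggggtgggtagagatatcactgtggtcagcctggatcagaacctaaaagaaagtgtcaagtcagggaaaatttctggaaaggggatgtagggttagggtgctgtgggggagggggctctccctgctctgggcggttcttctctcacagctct
C3: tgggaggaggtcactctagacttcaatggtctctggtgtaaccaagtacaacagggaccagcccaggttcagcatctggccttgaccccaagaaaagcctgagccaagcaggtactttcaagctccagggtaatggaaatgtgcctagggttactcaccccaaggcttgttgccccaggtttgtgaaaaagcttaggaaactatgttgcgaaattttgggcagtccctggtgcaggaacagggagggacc
C3ar1: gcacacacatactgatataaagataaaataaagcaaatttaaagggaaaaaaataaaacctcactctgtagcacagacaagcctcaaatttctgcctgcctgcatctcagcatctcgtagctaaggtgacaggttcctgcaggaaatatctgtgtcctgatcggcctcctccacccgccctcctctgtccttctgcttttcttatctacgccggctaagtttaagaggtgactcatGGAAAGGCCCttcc
C1qb held GAGGAA 25 to 30 bases before its RefSeq start. C1qc held GAGGAAGT 188 to 195 bases before its RefSeq start, on the opposite strand, where it reads ACTTCCTC. The RefSeq start of C1qc lies 151 bases inside the gene as GENCODE M21 places it, so the window shown overlaps that gene model, and the match is 37 to 44 bases before the GENCODE start. For C1qb the match is 38 to 43 bases before the GENCODE start. Among 32851 promoters of the same length, GAGGAA occurred in 23.3%, GAGGAAGT in 2.44%, the Maf core in 3.81%, the interferon element in 2.98% and the gamma-activated site in 7.02%. The C3ar1 promoter matched the NF-kB letters, found in 1.41% of promoters, and the C3 and Cfp promoters matched none of the motifs. These matches describe the letters of the windows and are not measured binding sites.

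C4b encodes complement C4, the first substrate of the C1 proteases. It was at 70.9, 61.1 and 45.7 CPM in KO and at 5.70, 5.15 and 5.78 CPM in WT. The WT libraries were nearly identical, and even the lowest KO library was several times above them. The log2 fold change was 3.42 (SE 0.19, adjusted p = 0.00011), a fold of 10.7 with a 95% interval of 7.90 to 14.4. Among the 7593 genes with a mean of at least 10 CPM, 5 genes, C4b included, had a log2 fold change at least this large.

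The mouse has a close copy of C4b, C4a, which encodes the sex-limited protein. Both lie on chromosome 17 (C4b at 34728380 to 34743882, C4a at 34809092 to 34823464), and 34.6% of the 50-base windows of C4b transcripts also occur in C4a, so reads from the shared stretches could have been lost or assigned to either gene. C4a had few counts, at 0.426, 1.71 and 2.39 CPM in KO and 0.271, 0.767 and 0.528 CPM in WT, with overlapping groups (adjusted p = 0.21). The order of the KO libraries was opposite in the copies: KO replicate 1 was highest for C4b and lowest for C4a.

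C3, the component on which all pathways converge, was at 167, 195 and 161 CPM in KO and at 28.3, 29.6 and 24.7 CPM in WT. The spread within each group was small beside the gap between them. The log2 fold change was 2.66 (SE 0.14, adjusted p = 8.9e-05), a fold of 6.34 with a 95% interval of 5.08 to 7.91. By p-value C3 ranked 3 and C4b ranked 4 among all tested genes. C3 (chromosome 17, 57203970 to 57228136) shares no exonic base with another gene.

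C3 and C4 are also made by other cells, fibroblasts among them. Fibroblast markers differed between the same libraries. The summed level of 10 fibroblast markers was 136 to 185 CPM in KO and 12.2 to 40.7 CPM in WT. Of 8 tested markers 5 rose and none was called lower, beside 4.39% and 2.25% of all tested genes. Pi16 went the other way, with every KO library below every WT library (log2 fold change -1.14, adjusted p = 0.13). The rise was led by the collagens: Col1a1 was at 56.2 to 84.0 CPM in KO and 2.95 to 13.9 CPM in WT, and Col3a1 at 41.8 to 48.9 CPM in KO and 4.11 to 14.3 CPM in WT. The other 3 that rose were Col1a2, Dpt and Mfap5, the last 2 at low levels: Dpt was at 1.62 ± 0.298 CPM in KO and 0.189 ± 0.0491 CPM in WT (adjusted p = 0.010), and Mfap5 at 1.10 ± 0.271 CPM in KO and 0.0886 ± 0.0433 CPM in WT (n = 3 each, SD; adjusted p = 0.012). Of the 5 markers not called, Pdgfra was at 0.322 to 1.14 CPM in KO and 0.164 to 0.504 CPM in WT, Dcn at 0.785 to 2.19 CPM in KO and 0.658 to 1.14 CPM in WT, Pi16 at 0.533 to 1.16 CPM in KO and 1.64 to 2.33 CPM in WT, Lum at no more than 0.320 CPM, and Tcf21 at 0 in all libraries. Serping1 and C1s1, the genes of the C1 inhibitor and of a C1 protease, were not on this marker list. They were near 1 CPM or below in both groups. By library the fibroblast sum was 178, 185 and 136 CPM in KO and 12.2, 21.9 and 40.7 CPM in WT. In KO the sum, C4b and C3 were all lowest in replicate 3, and in WT the sum was highest in replicate 3, where C4b was highest (5.78 CPM) by a small margin and C3 was lowest (24.7 CPM). The part of fibroblast RNA in the differences of C3 and C4b was not tested.

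C2, the protease that joins C4b to form the classical C3 convertase, had 12, 2 and 0 counts in KO and 5, 2 and 2 counts in WT, too few for a test. Cfb, its counterpart in the alternative pathway, had 66 counts over the KO libraries and 32 over the WT libraries, at 2.19, 1.14 and 0.580 CPM in KO and 0.116, 0.411 and 0.411 CPM in WT. The groups were apart by a small margin, since KO replicate 3 lay just above WT replicates 2 and 3. The log2 fold change of 2.02 (95% interval 0.55 to 3.49) did not pass the test (adjusted p = 0.099).

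Low counts of C2 and Cfb do not have to mean low transcript levels. The genes lie 85 bases apart on chromosome 17 (C2 at 34862604 to 34898265, Cfb at 34856374 to 34862518), and the annotation holds a further gene model, Gm20547, that runs across both on the same strand. It shares 42.8% of the exonic bases of C2 and 79.5% of those of Cfb. Gm20547 was listed at 0 in all 6 libraries, so if reads matching more than 1 gene were discarded, those of the shared exons would be missing from all 3 rows. The counting setting is not given in the sources used here.

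Cfp encodes properdin, the only known protein that stabilises the alternative convertase, and it is made by myeloid cells. It was at 213, 224 and 105 CPM in KO and at 85.2, 113 and 152 CPM in WT. The groups overlapped: KO replicates 1 and 2 were above all WT libraries and KO replicate 3 was within their range. The log2 fold change was 0.63 (95% interval -0.04 to 1.31, adjusted p = 0.24), and it was 0.91 without KO replicate 3 (adjusted p = 0.039) and -0.20 without KO replicates 1 and 2 (adjusted p = 0.72). KO replicates 1 and 2, with the highest Cfp, are also the libraries with high Xist, and Cfp lies on the X chromosome (20925454 to 20931555). With a sex term the log2 fold change was -0.15, in a fit whose genotype effect rests on KO replicate 3 against WT. Both libraries with high Xist are KO, so sex, genotype and library cannot be told apart here. Without KO replicate 3, 6.21% of all tested genes were called higher.

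C3ar1 (chromosome 6, 122847138 to 122856161), the receptor for C3a, did not pass the test. It was at 548, 519 and 461 CPM in KO and at 611, 616 and 598 CPM in WT. All KO libraries were below the tightly grouped WT libraries. The log2 fold change was -0.26 (95% interval -0.56 to 0.05, adjusted p = 0.29), and a fall by more than 0.56 on the log2 scale lies outside this interval. With library sizes alone it was -0.87 (adjusted p = 0.0042), in a fit in which the median of all tested genes was -0.60 and 40.1% of them were called lower. The ratio of C3 to C3ar1 counts, which no scaling alters, was 0.304, 0.376 and 0.349 in KO and 0.0464, 0.0480 and 0.0412 in WT.

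Another 51 complement genes in 5 groups were examined. Of these, 19 were tested and 1 rose, a count close to the 4.39% called higher over all tested genes. That gene was Fcna, which encodes ficolin A, a recognition molecule of the lectin pathway that macrophages make. The gene was at 14.1, 12.9 and 10.7 CPM in KO and at 3.41, 4.82 and 2.96 CPM in WT. The groups did not overlap, and the log2 fold change was 1.75 (SE 0.24, adjusted p = 0.0065). The median log2 fold change of the 19 genes was 0.26.

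In the classical and lectin group 4 of 14 genes were tested and Fcna alone rose. The proteases that act with C1q had low counts. C1ra was at 3.85 ± 1.15 CPM in KO and 3.49 ± 0.667 CPM in WT (n = 3 each, SD; adjusted p = 0.82), and C1s1 had 17, 5 and 2 counts in KO and 8, 9 and 22 counts in WT. None of the 4 genes of the alternative group was tested, and Cfd, the gene of factor D, had no more than 1 count in a KO library and no more than 4 in a WT library. In the terminal group 1 of 7 genes, C8g, was tested without a call, and Hc, the gene of C5, was listed at 0 in all 6 libraries.

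Of 15 regulators, 4 were tested and none passed. At an unadjusted p under 0.05 there were 0 of these 4, and 3516 of all 14987 tested genes. None was called by DESeq2 or by limma-voom, which called 12.7% and 32.4% of all tested genes. Cr1l, which encodes the rodent membrane regulator Crry, was at 25.8 ± 3.43 CPM in KO and 26.1 ± 2.81 CPM in WT (n = 3 each, SD), with a 95% interval of -0.36 to 0.33 for the log2 fold change. Serping1, the gene of the C1 inhibitor, was at 0.642 to 1.07 CPM in KO and 0.465 to 0.675 CPM in WT, and Cd55 had 1 to 13 counts in KO and 6 to 16 in WT.

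Of 11 further receptors, 10 were tested and none passed. At an unadjusted p under 0.05 there were 3516 of all 14987 tested genes and 4 of these receptors, namely C5ar1, Lrp1, Cd93 and Itgax. All 4 were called by DESeq2, and limma-voom called these and C5ar2. Over all tested genes, DESeq2 called 12.7% and limma-voom 32.4%. C5ar1, the main receptor for C5a, was at 108, 104 and 51.7 CPM in KO and at 125, 139 and 193 CPM in WT. All KO libraries were thus below all WT libraries, as in 14.7% of all tested genes (log2 fold change -0.79, adjusted p = 0.13). Lrp1, a scavenger receptor, was at 2501 ± 176 CPM in KO and 3791 ± 420 CPM in WT (adjusted p = 0.077), and Cd93, once proposed as a C1q receptor, at 598 ± 51.7 CPM in KO and 820 ± 32.1 CPM in WT (n = 3 each, SD; adjusted p = 0.083). Itgax, a subunit of complement receptor CR4, was at 160 ± 24.9 CPM in KO and 79.3 ± 32.7 CPM in WT (adjusted p = 0.069). Itgam, a subunit of complement receptor CR3, was at 177 ± 32.4 CPM in KO and 199 ± 47.5 CPM in WT (adjusted p = 0.67), and its direction turned without WT replicate 1. The gene model Gm49368 shares 68.7% of the exonic bases of Itgam on the same strand, so reads of these exons could be missing from the Itgam counts. Vsig4, the complement receptor of some resident macrophages, was at 1.32 CPM or less in all 6 libraries.

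**Figure D3:**
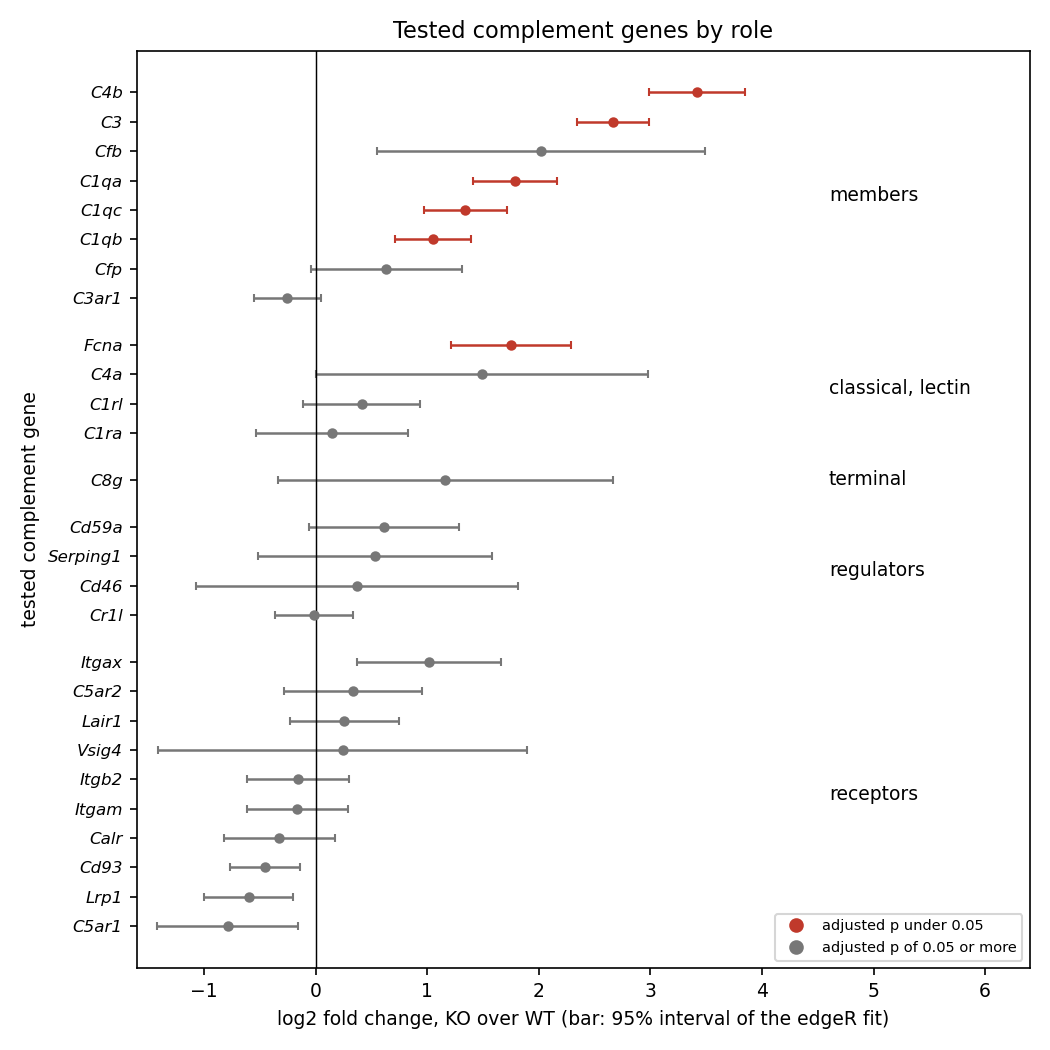
Log2 fold changes, KO over WT, of the 27 tested complement genes by role, with 95% intervals of the edgeR fit; red marks an adjusted p under 0.05. The called genes are C4b, C3, C1qa, C1qc and C1qb among the members and Fcna among the others, and the receptors lie on both sides of 0, with a median of -0.16.

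The summed markers of muscle cells were higher in KO, as was the fibroblast sum. Over all tested genes, 4.39% were called higher in KO and 2.25% lower. Satellite cell and myoblast markers summed to 17.96 to 25.8 CPM in KO and 3.59 to 4.92 CPM in WT, where Des and Myog rose out of 5 tested, and muscle fibre markers, led by Acta1 and Tnnt3, summed to 51.0 to 70.1 CPM in KO and 12.6 to 15.8 CPM in WT, where 6 of 9 tested rose. Endothelial markers, led by Cdh5 and Kdr, summed to 15.9 to 31.2 CPM in KO and 48.2 to 103 CPM in WT, and 5 of 10 fell; Cdh5 was among these and Kdr (6.00 to 16.3 CPM in KO, 11.5 to 13.4 CPM in WT) was not. B cell markers (Cd79b, Ebf1) summed to 5.74 to 6.34 CPM in KO and 2.58 to 3.57 CPM in WT, and mast cell markers (Kit, Cma1) to 1.07 to 1.29 CPM in KO and 0.620 to 0.880 CPM in WT, with no gene called. The sums overlapped between groups for the other lists, among which Mmp8 fell (2.33 ± 1.00 CPM in KO, 10.7 ± 4.69 CPM in WT, adjusted p = 0.018) and Acta2 rose (7.86 to 8.99 CPM in KO, 3.18 to 5.04 CPM in WT, adjusted p = 0.031). The neutrophil sum was mostly Csf3r, at 51.8 ± 14.2 CPM in KO and 47.1 ± 12.2 CPM in WT (n = 3 each, SD). The sums were 43.3 to 73.4 CPM in KO and 42.0 to 80.7 CPM in WT for neutrophils (Csf3r, Mmp8), 62.3 to 157 CPM in KO and 75.1 to 148 CPM in WT for pericytes and smooth muscle (Cspg4, Acta2), 8.51 to 14.6 CPM in KO and 7.63 to 25.8 CPM in WT for dendritic cells (Cd209a, Flt3), 0.387 to 0.800 CPM in KO and 0.302 to 0.470 CPM in WT for T and NK cells (Cd3d, Lck), and 8360 to 8775 CPM in KO and 5987 to 8591 CPM in WT for the macrophage list (Lyz2, Csf1r). The C1q genes, at 838 to 1650 CPM each in KO and 300 to 646 CPM each in WT, were above the sum of every list but that of macrophages. The gap was smaller in WT, where C1qc was at 300 CPM in replicate 3 beside a pericyte and smooth muscle sum of 148 CPM. These sums do not measure how much C1q RNA other cells add, and the source of the C1q RNA was not tested.

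**Figure D4:**
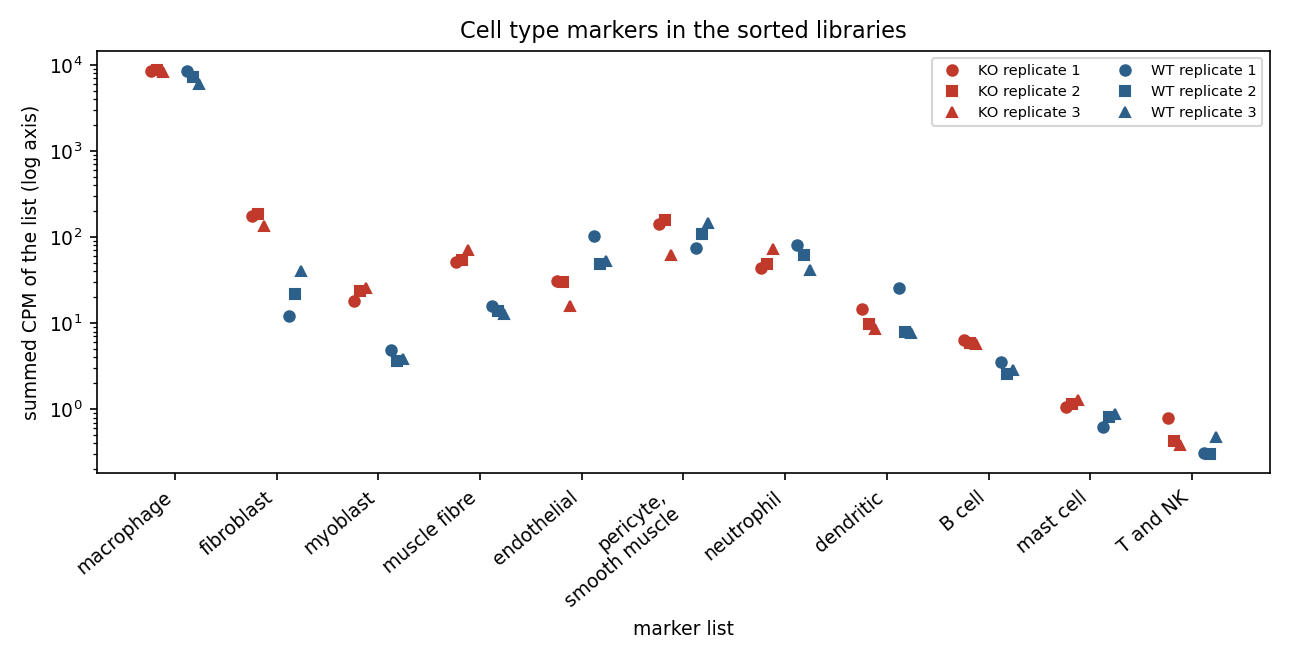
Summed CPM of 11 cell type marker lists in each library on a log axis, KO in red left of WT in blue. Fibroblast (136 to 185 CPM in KO, 12.2 to 40.7 CPM in WT), myoblast and muscle fibre markers are higher in KO and endothelial markers lower, while macrophage markers dominate all 6 libraries.

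The calls of C1qa, C1qc, C3 and C4b held in each of the 6 fits that left out 1 library, as did that of Fcna; of all tested genes, 0.907% were called higher in the full fit and in all 6. For C1qb the fit without KO replicate 2 missed the threshold (log2 fold change 1.02, adjusted p = 0.056). Without KO replicates 1 and 2, the comparison rests on KO replicate 3 alone and assumes that this library varies like those of WT. The log2 fold changes were then 1.51 for C1qa, 1.32 for C1qc, 2.50 for C3 and 2.99 for C4b, all called (adjusted p of 0.0051 to 0.048), and 1.04 for C1qb (adjusted p = 0.061). In that fit 0.572% of all tested genes were called higher, and Fcna missed the threshold (adjusted p = 0.080). With library sizes alone C1qb also missed it (log2 fold change 0.43, adjusted p = 0.090), and C1qa, C1qc, C3 and C4b were called at 1.17, 0.72, 2.04 and 2.81. The share of all tested genes called in either direction was 12.7% with DESeq2, 32.4% with limma-voom, 6.03% with no count filter, 42.1% with library sizes alone, 1.2% against a fold of 1.5, 9.98% with a sex term, 1.78% with the replicate block, 1.69% with KO replicates 1 and 2 summed and 10.1% over protein-coding genes alone.

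**Figure D5:**
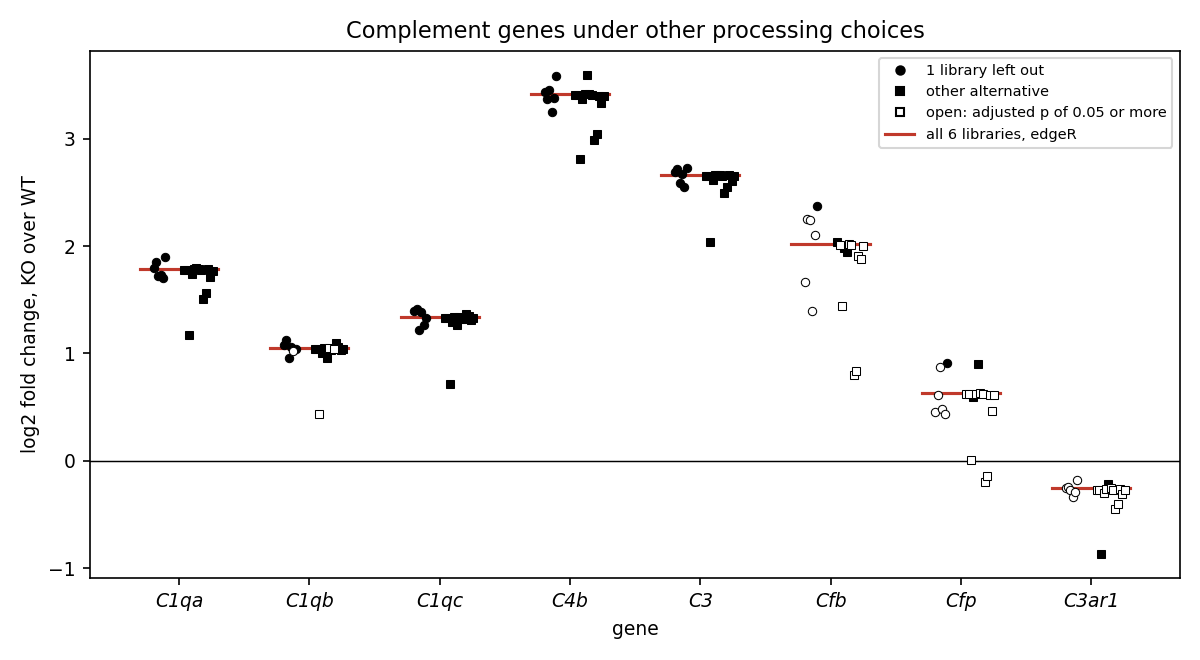
Log2 fold changes, KO over WT, of 8 complement genes in all 6 libraries (red line), with 1 library left out (circles) and under the other alternatives (squares); filled symbols have an adjusted p under 0.05. C1qa, C1qc, C3 and C4b are filled throughout, the lowest square of each of the 3 C1q genes is the fit with library sizes alone, and Cfp crosses 0.

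The 5 genes whose profile over the 6 libraries was most like that of the summed C1q chains were Ptms, Tlr9, Nynrin, Itm2b and Cxcl16, among 7366 genes compared, which had a mean of at least 10 CPM, a count in every library and a name other than a clone or model number. Likeness was the root mean square difference between log2 CPM centred over the libraries, and it was 0.0594 for Ptms and 0.0970 to 0.123 for the other 4. Ptms, which encodes parathymosin, was at 938, 1015 and 846 CPM in KO and at 396, 415 and 323 CPM in WT, a profile that nearly overlaid that of C1q. Tlr9, a receptor for unmethylated DNA, was at 69.1, 65.3 and 60.1 CPM in KO and at 28.6, 30.4 and 23.4 CPM in WT. With 2 groups of 3 libraries, such likeness is mostly a like difference between the groups.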

How the data were processed

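Macrophages sorted from calf muscle were profiled in 3 KO and 3 WT libraries, made per the labels' protocols from 7000 to 50000 cells with a low-input SMARTer kit. The authors deposited raw whole-number counts per gene, 1 column per library. Per the submitters' processing notes, Trim Galore, FastQC, HISAT2, featureCounts and DESeq were used with build GRCm38; annotation, strand and multi-mapping settings were not given in the sources used here, so antisense and overlapping genes are uncertain. The 26 rows with date-like symbols (0.0913% to 0.163% of a library) were left out.

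Genes kept by filterByExpr were scaled with TMM (factors 0.713 to 0.892 in KO and 1.23 to 1.26 in WT) and tested two-sided with glmQLFit and glmQLFTest in edgeR 4.0.16 (R 4.3.3), with Benjamini-Hochberg adjustment over 14987 genes and no covariate. SEs are the log2 fold change over the root of the F statistic. The procedure was run on simulated counts with 200 changed genes. These were drawn with the dispersions and library sizes of this same fit and without the split by Xist. They check the code and not how well the test suits these libraries. Positions, exonic lengths and overlaps came from GENCODE M21 (GRCm38), which held 14744 of the tested symbols. Precision at low counts is set by counting error.

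The members and gene lists were chosen with earlier results of these data known. Named genes were the 9 members, complement genes past the threshold or on a fixed list, the 5 most C1q-like genes, Pfkfb3, Xist, Ddx3y and the leading markers. Lrp1, Cd93, Itgax, Cr1l, C6, C8g, Fcnb and further single genes of the lists were chosen after their values were seen, and list genes not named in the text enter the counts and sums only. Apart from these, 1 gene is not reported here. Alternatives were DESeq2 1.42.0, limma-voom (limma 3.58.1), other scalings and filters, a test against a fold of 1.5, libraries left out, a sex term and a replicate block. KO replicates 1 and 2 summed, and protein-coding genes alone, were added after seeing the data. Replicate numbers follow record order. Deviations from the group mean of libraries with the same title ending correlated at -0.0076, -0.099 and -0.175, which shows no pairing by ending. With 3 libraries per group and no other pairing compared, this check cannot exclude one.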

Additional observations from a re-analysis of the deposited data

How the results depend on the processing

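C1qa, C1qc, C3 and C4b kept their direction and call in all 19 alternatives, with log2 fold changes of 1.17 to 1.89, 0.72 to 1.41, 2.04 to 2.72 and 2.81 to 3.60. C1qb stayed higher in all 19 (0.43 to 1.13) and lost its call in 4, namely library sizes alone, the test against a fold of 1.5, the fit without KO replicate 2 and that without KO replicates 1 and 2. The number of changed members was 5, all higher, against 6 with DESeq2, 7 with no count filter, 8 with limma-voom (7 higher, 1 lower), 4 against a fold of 1.5 or without KO replicates 1 and 2, 5 with library sizes alone (4 higher, 1 lower) and 4 to 7 with 1 library left out. Of all tested genes, 12.7% were called with DESeq2, 6.03% with no count filter, 32.4% with limma-voom and 42.1% with library sizes alone. Cfb was called in 4 of 18 alternatives, Cfp in 3 of 19 and C3ar1 in 2 of 19. Cfp reversed to -0.20 without KO replicates 1 and 2 and to -0.15 with a sex term. Both libraries with high Xist are KO, so with the sex term the genotype effect also rests on KO replicate 3 against WT. These fits are thus not independent alternatives. The C1qa to C1qb log2 ratio differed by 0.65 to 0.85 with 1 library left out, C1qa to C1qc by 0.32 to 0.56 and C1qc to C1qb by 0.25 to 0.33.

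Of the other complement genes 1 changed, against 5 with DESeq2 or no count filter, 8 with library sizes alone, 6 with limma-voom, 4 with the sex term, 2 with the replicate block or protein-coding genes alone, 0 without KO replicates 1 and 2, and 1 to 3 with 1 library left out. The share called over all tested genes was 12.7% with DESeq2, 42.1% with library sizes alone, 32.4% with limma-voom and 9.98% with the sex term. With library sizes alone Serping1 (-0.058), Vsig4 (-0.37), C1ra (-0.45) and Pfkfb3 (-0.50) reversed. With 1 library left out the log2 fold change spanned 0, from -0.21 to 1.38 for Vsig4, -0.16 to 0.29 for C1ra, -0.30 to 0.046 for Itgam and -0.56 to 0.33 for Pfkfb3. C1ra was -0.23 without KO replicates 1 and 2 and -0.18 with the sex term. Limma-voom, which called 32.4% of all tested genes, gave 0.15 for Itgam and -0.65 for Pfkfb3 (adjusted p = 0.015). For Pfkfb3 the replicate block gave -0.059. The sex term gave 0.92 for Pfkfb3, a value that rests on KO replicate 3 against WT. The cause was not tested.

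Over all genes 995 changed, against 1870 with DESeq2, 6308 with library sizes alone (300 higher, 6008 lower), 1957 with no count filter, 4850 with limma-voom, 180 against a fold of 1.5, 149 without KO replicates 1 and 2, 1495 with the sex term, 267 with the replicate block, 282 with KO replicates 1 and 2 summed, and 189 to 1652 with 1 library left out (189 without KO replicate 2, 1652 without KO replicate 3). The replicate block changed the call of no member. A pairing of libraries by title ending was not seen, though the check could not exclude one. Depth limits C2, Cfb, C4a and the genes under about 1 CPM.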

Other observations

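Among genes too low for the test, C6, a component of the membrane attack complex, had 17, 12 and 6 counts in KO and 0, 0 and 2 counts in WT. With no count filter it was called higher (adjusted p = 0.00039), where the size of its fold depends on the prior count. In that edgeR fit the adjusted p of C3 was 3.1e-45, against 8.9e-05 in the main fit. Since C6 was picked for its counts, this p-value does not support a change. Fcnb, the gene of the second mouse ficolin, which is made by myeloid cells of the bone marrow, had 0 counts in each KO library and 4, 7 and 1 counts in WT. Fcna, the other ficolin, had 264, 181 and 166 counts in KO and 88, 176 and 101 in WT. C6 and Fcnb were named after their values were seen.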
